A study of Homo sapiens with 6 samples.

Results

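The genes described here set how a cell leaves the first gap phase (G1) of its cycle: the D cyclins CCND1, CCND2 and CCND3, their kinases CDK4 and CDK6, and the CDK inhibitors CDKN1B and CDKN1C (CIP/KIP family) and CDKN2A, CDKN2B and CDKN2C (INK4 family). They were chosen by gene name and are 10 of the 57914 genes in the deposited tables; each name matched 1 row. RNA sequencing was done on A375, an established human melanoma cell line, after staining with Aldefluor, a dye that aldehyde dehydrogenases (ALDH) turn into a retained fluorescent product. ALDH_High is the 5% of cells with the strongest signal and ALDH_Low the 5% with the weakest, with 3 libraries each. Both groups come from the same line in the same medium, no genetic change or drug is given for either, and no unsorted cells were analysed here. The labels do not say whether the 3 libraries of a group came from separate cultures, so the p-values measure the spread between these libraries, which may be technical.

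In G1, mitogen signals raise the D cyclins, which bind and activate CDK4 or CDK6. The active kinases phosphorylate the retinoblastoma protein RB1 and its relatives and so release E2F transcription factors, which switch on genes for DNA replication. INK4 proteins bind CDK4 and CDK6 directly and block cyclin binding, while CIP/KIP proteins bind whole cyclin-CDK complexes and inhibit CDK2 above all. In melanoma this pathway is well known: CDKN2A is a familial melanoma gene, and CCND1 is a target of the MAPK pathway that activated BRAF drives. Much of the control of these proteins lies in their stability and phosphorylation, which RNA sequencing does not measure.

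Of the 10 genes, 8 passed the filter on low counts and were tested. CCND1, CDK6 and CDKN1B were higher in ALDH_High, and 0 were lower; a call means that the quasi-likelihood test of edgeR gave a Benjamini-Hochberg p under 0.05 over 17047 genes. In bulk RNA, a change in the number of cells that express a gene and a change in RNA per cell cannot be told apart. Among all genes tested, 20.6% passed in either direction, 10.8% as higher and 9.83% as lower, so these calls are to be read against a broad difference between the groups. The median log2 fold change of the 8 was 0.30, beside -0.013 for all genes tested. The genes were chosen with earlier results of these data known, so setting them beside all genes is a description only. At an unadjusted p below 0.05, edgeR, the DESeq2 Wald test and limma on log2(TPM + 1) each counted 3 higher and 1 lower, and after adjustment DESeq2 counted 3 higher and 0 lower while limma counted 0 and 0. Many of all genes pass without adjustment: an unadjusted edgeR p of 0.0488, that of FOS, ranked 5457 among the 17047 tested. All unadjusted counts given here are to be read against that rank. CPM values (counts relative to scaled library size) of the groups did not overlap for 4 of the 8, CDKN2A being the other one, where 37.8% of all genes tested did not overlap.

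The promoters of the 2 called genes with an entry in the RefSeq table (GRCh38.p14) and of CDK4, the partner kinase that was not called, are printed to show the sequence before the start of transcription. Windows were found for 7 of the 10 genes, and the stretches below end at the base before the RefSeq start, except for CDK4, whose stretch runs from base -250 to base -138 so that no annotated exon is included. Capitals mark matches to the motifs searched on both strands, which were E2F (TTTCCCGC, TTTCGCGC, TTTGCCGC or TTTGGCGC), the E-box CACGTG, AP-1 (TGANTCA) and CRE (TGACGTCA).
CDK6, chr7:92836574-92836823, minus strand, 250 bases: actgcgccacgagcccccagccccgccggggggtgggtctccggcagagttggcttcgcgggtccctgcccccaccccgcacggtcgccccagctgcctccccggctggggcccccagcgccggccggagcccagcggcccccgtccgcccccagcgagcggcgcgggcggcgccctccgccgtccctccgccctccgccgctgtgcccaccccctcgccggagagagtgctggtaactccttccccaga
CDKN1B, chr12:12717118-12717367, plus strand, 250 bases: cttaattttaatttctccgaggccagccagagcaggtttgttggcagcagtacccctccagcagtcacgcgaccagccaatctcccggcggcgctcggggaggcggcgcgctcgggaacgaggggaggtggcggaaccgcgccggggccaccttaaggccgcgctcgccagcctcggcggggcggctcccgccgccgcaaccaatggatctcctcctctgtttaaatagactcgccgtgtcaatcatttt
CDK4, chr12:57752448-57752560, minus strand, 113 bases: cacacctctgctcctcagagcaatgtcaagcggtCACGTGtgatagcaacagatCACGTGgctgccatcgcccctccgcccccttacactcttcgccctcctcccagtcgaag

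The CDK6 stretch lies just outside the GENCODE span of CDK6, whereas those of CDKN1B and CDK4 lie inside the spans of their genes, which have longer transcripts. The CDK6 and CDKN1B stretches held no match to these motifs. CDK4 had the E-box at bases -216 to -211 and -196 to -191, and once more at -101 to -96 beyond the printed part. CDKN2C had 1 E-box in each of 2 of its 3 windows, and the windows of CCND3, CDKN2A and CDKN2B had no match. Over the 250 bases before each of 35116 starts in the table, 2.79% held an E2F match, 6.34% the E-box, 6.57% AP-1 and 1.65% CRE. The absence of a match says only that these letters are not in the window.

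Among the D cyclins, CCND1 was called higher, CCND3 was not called and CCND2 was near 0; the difference in change between CCND1 and CCND3 was not tested. CCND1 (ENSG00000110092, chromosome 11, 69641156 to 69654474, GRCh38), the cyclin that mitogens induce most directly, measured 428, 765 and 689 CPM across ALDH_High libraries 1 to 3 and 345, 405 and 339 CPM across ALDH_Low libraries 1 to 3. The groups did not overlap, but ALDH_High library 1 was close to the highest ALDH_Low library. The log2 fold change of CCND1 was 0.79 (SE 0.19, 95% interval 0.36 to 1.22, edgeR adjusted p 0.0160), which is 1.73-fold. Without ALDH_High library 1 it was 1.02 (adjusted p 0.000266), while the call was lost without ALDH_High library 2 (0.64, adjusted p 0.0626), without ALDH_Low library 1 (0.77, 0.0559) and without ALDH_Low library 3 (0.74, 0.0761). On log2(TPM + 1) limma gave 0.80 with an adjusted p of 0.0788.

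CCND3 (chromosome 6, 41934934 to 42050357), the D cyclin best known from lymphoid cells, had 95.8, 70.6 and 64.6 CPM in ALDH_High and 72.5, 75.8 and 75.5 CPM in ALDH_Low. ALDH_High library 1 was the highest of all 6 and the other ALDH_High libraries were the lowest, so the ALDH_High values lay on both sides of the narrow ALDH_Low range. For CCND3 the log2 fold change was 0.044 (95% interval -0.29 to 0.37, edgeR adjusted p 0.876). It changed sign to -0.0061 with upper-quartile scaling and to -0.13 without ALDH_High library 1 (adjusted p 0.388). CCND2 (chromosome 12, 4269771 to 4305353) had 0 counts in every ALDH_High library and 1, 0 and 1 counts in ALDH_Low. At these depths 0 counts allow a level of at most 0.0868 to 0.118 CPM in the ALDH_High libraries, for counting error only, and no fold is given.

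TPM, a share of all transcripts, accounts for gene length, so levels of different genes can be set side by side on it. CCND1 made up 70.0%, 85.0% and 84.8% of the summed D cyclin TPM in ALDH_High and 71.4%, 73.6% and 70.1% in ALDH_Low. The share in ALDH_High library 1 thus lay at the ALDH_Low level and the other ALDH_High shares lay above every ALDH_Low share. Means were 79.9 ± 8.58% and 71.7 ± 1.78% (SD, n = 3), and the two-sided exact permutation p was 0.4, where 3 against 3 libraries cannot go below 0.1. The D cyclins summed to 220, 359 and 332 TPM in ALDH_High and to 185, 211 and 175 TPM in ALDH_Low.

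**Figure D1:**
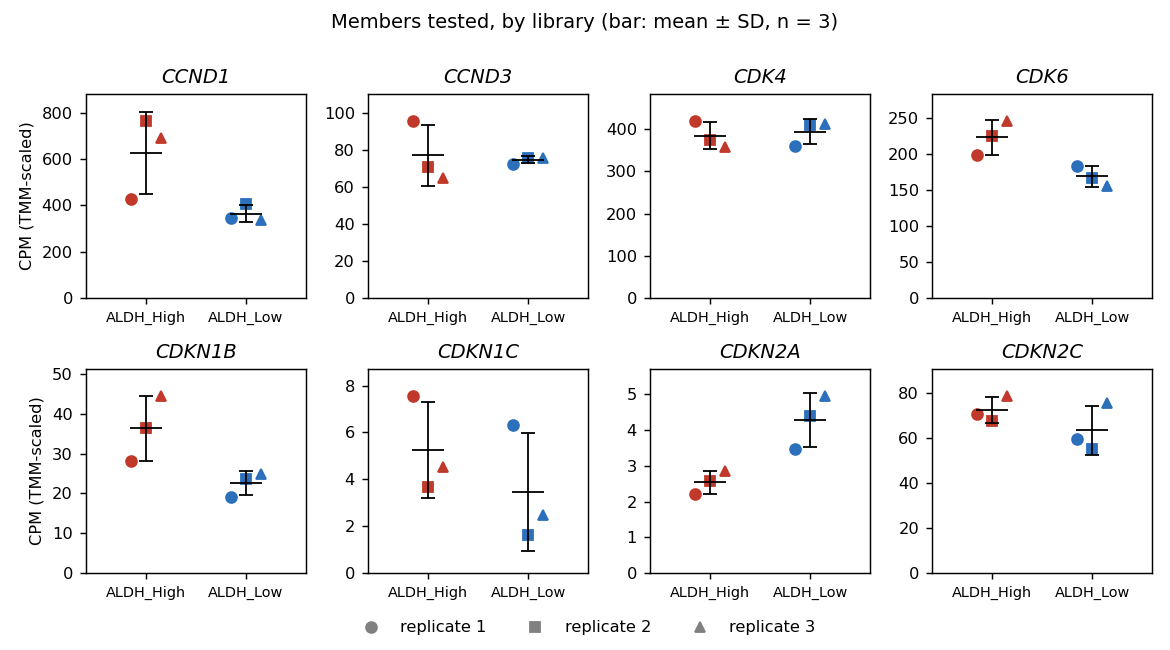
CPM of the 8 genes tested, by group, with each library as a point and the mean and SD as bars (n = 3). The groups do not overlap for CCND1, CDK6, CDKN1B and CDKN2A; ALDH_High library 1 is the lowest of its group for CCND1, CDK6 and CDKN1B and the highest for CCND3, CDK4 and CDKN1C.

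Of the kinases, CDK6 was called higher and CDK4 was not, and the difference between these changes was not tested. CDK6 (ENSG00000105810, chromosome 7, 92604921 to 92836573) had 198, 226 and 247 CPM in ALDH_High and 184, 167 and 156 CPM in ALDH_Low. Every ALDH_High library lay above every ALDH_Low library, with libraries 1 of the groups closest to each other. CDK6 had a log2 fold change of 0.40 (SE 0.12, 95% interval 0.14 to 0.67, edgeR adjusted p 0.0380), or 1.32-fold. With the replicate number as a block it was 0.40 with an adjusted p of 0.0646, and with upper-quartile scaling 0.35 with 0.0625, so neither passed. It also did not pass without ALDH_High library 2 (0.41, adjusted p 0.103), ALDH_High library 3 (0.34, 0.124), ALDH_Low library 2 (0.39, 0.117) or ALDH_Low library 3 (0.35, 0.135), or in limma on log2(TPM + 1) (0.44, 0.0975).

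CDK4 (ENSG00000135446, chromosome 12, 57747727 to 57756013) had 420.0, 375 and 359 CPM in ALDH_High and 359, 409.7 and 412 CPM in ALDH_Low. The groups overlapped over most of their range. For CDK4 the log2 fold change was -0.033 (95% interval -0.28 to 0.21, edgeR adjusted p 0.875), and its sign depended on the scale: in limma on log2(TPM + 1) it was 0.016. The median of all genes tested moved as well, from -0.013 in edgeR to 0.035 in that limma fit. On TPM, CDK4 had the highest level of the 10 genes, at 418 ± 6.77 in ALDH_High and 414 ± 27.4 in ALDH_Low (SD, n = 3), where CDK6 had 38.1 ± 6.45 and 27.7 ± 3.10. CDK6 was thus 6.85%, 8.57% and 9.67% of the summed kinase TPM in ALDH_High and 7.38%, 5.98% and 5.57% in ALDH_Low. ALDH_High library 1 lay below ALDH_Low library 1, so these shares overlapped (exact permutation p = 0.2). Per 100 TPM of the kinases together, the D cyclins had 48.4, 78.4 and 73.1 TPM in ALDH_High and 44.6, 45.1 and 39.6 in ALDH_Low, which did not overlap (exact permutation p = 0.1, the smallest possible).

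CDKN1B (p27, ENSG00000111276, chromosome 12, 12685498 to 12722369), the CIP/KIP inhibitor that accumulates in resting cells, was called higher, like CCND1 and CDK6. It had 28.1, 36.4 and 44.6 CPM in ALDH_High and 19.1, 23.7 and 24.9 CPM in ALDH_Low. The groups did not overlap, and ALDH_High library 1 was again the nearest to ALDH_Low. Its log2 fold change was 0.69 (SE 0.18, 95% interval 0.29 to 1.09, edgeR adjusted p 0.0219), or 1.61-fold. It did not pass without ALDH_High library 2 (0.71, adjusted p 0.0568), ALDH_High library 3 (0.53, 0.0738), ALDH_Low library 1 (0.59, 0.0808) or ALDH_Low library 2 (0.72, 0.0572), or in limma on log2(TPM + 1) (0.68, 0.0717).

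CDKN1C (p57, chromosome 11, 2883213 to 2885775), an imprinted inhibitor of the same family, was 7.57, 3.68 and 4.54 CPM in ALDH_High and 6.30, 1.61 and 2.48 CPM in ALDH_Low. ALDH_Low library 1 lay within the ALDH_High range and the other ALDH_Low libraries below it. CDKN1C had a log2 fold change of 0.58 (SE 0.46, 95% interval -0.44 to 1.61, edgeR adjusted p 0.433). Without ALDH_Low library 1 it was 1.37 with an adjusted p of 0.0397, and without ALDH_Low library 2 it was 0.24 (0.774). It was 0.25 without ALDH_High library 1 (0.754). The counts behind it ran from 48 to 243 per library.

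Of the INK4 genes, CDKN2A (ENSG00000147889, chromosome 9, 21967752 to 21995301), which encodes p16 and, from another start and reading frame, ARF, was the gene nearest to the threshold in the other direction. It had 2.21, 2.58 and 2.84 CPM in ALDH_High and 3.48, 4.38 and 4.96 CPM in ALDH_Low, from 56, 89, 97, 134, 131 and 138 counts. The groups did not overlap. The log2 fold change of CDKN2A was -0.74 (SE 0.24, 95% interval -1.28 to -0.21) with an edgeR adjusted p of 0.0537, which did not pass. It passed with the replicate number as a block (-0.74, adjusted p 0.0395) and with upper-quartile scaling (-0.79, 0.0427); over the 15 alternatives its adjusted p ran from 0.0395 to 0.175 and its log2 fold change from -0.86 to -0.61. The deposited row does not separate p16 from ARF transcripts.

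CDKN2C (p18, chromosome 1, 50960745 to 50974634) had 70.7, 67.8 and 79.0 CPM in ALDH_High and 59.8, 55.2 and 75.7 CPM in ALDH_Low. ALDH_Low library 3 lay among the ALDH_High values. For CDKN2C the log2 fold change was 0.19 (95% interval -0.12 to 0.50, edgeR adjusted p 0.392), so a change of up to 0.50 is within its error. CDKN2B (p15, chromosome 9, 22002903 to 22009305) had 0 counts in all 6 libraries, which allows at most 0.0778 to 0.118 CPM for counting error only. MTAP (chromosome 9, 21802636 to 21937651), on the other side of CDKN2A from CDKN2B, had 151 to 201 CPM (log2 fold change 0.10, edgeR adjusted p 0.629).

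On TPM, CDKN2C was the most abundant of the 5 inhibitors, with 63.3 ± 7.99 TPM in ALDH_High and 53.3 ± 7.11 in ALDH_Low (SD, n = 3). CDKN1B followed with 25.0 ± 7.07 and 14.8 ± 1.74 TPM. CDKN2A, at 6.02 ± 1.08 and 9.69 ± 1.46, and CDKN1C, at 6.37 ± 2.04 and 4.11 ± 3.05 TPM, did not differ beyond their spread in ALDH_High. Over all the genes described, CDK4 was followed by CCND1 (247 ± 81.2 and 137 ± 16.9 TPM), then by CDKN2C and CCND3 (56.8 ± 8.16 and 53.6 ± 1.82), whose levels did not differ beyond their spread, and by CDK6. The share of CDKN2A in the summed inhibitor TPM was 5.51%, 6.42% and 5.99% in ALDH_High and 10.1%, 13.5% and 12.0% in ALDH_Low, without overlap (exact permutation p = 0.1, the smallest possible). The share of CDKN1B was 24.5 ± 3.87% and 18.2 ± 2.61% and overlapped (exact permutation p = 0.2). Per 100 TPM of D cyclins, the inhibitors together had 40.0, 26.9 and 35.2 TPM in ALDH_High and 43.0, 35.7 and 51.9 in ALDH_Low, which overlapped as well (exact permutation p = 0.2).

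**Figure D2:**
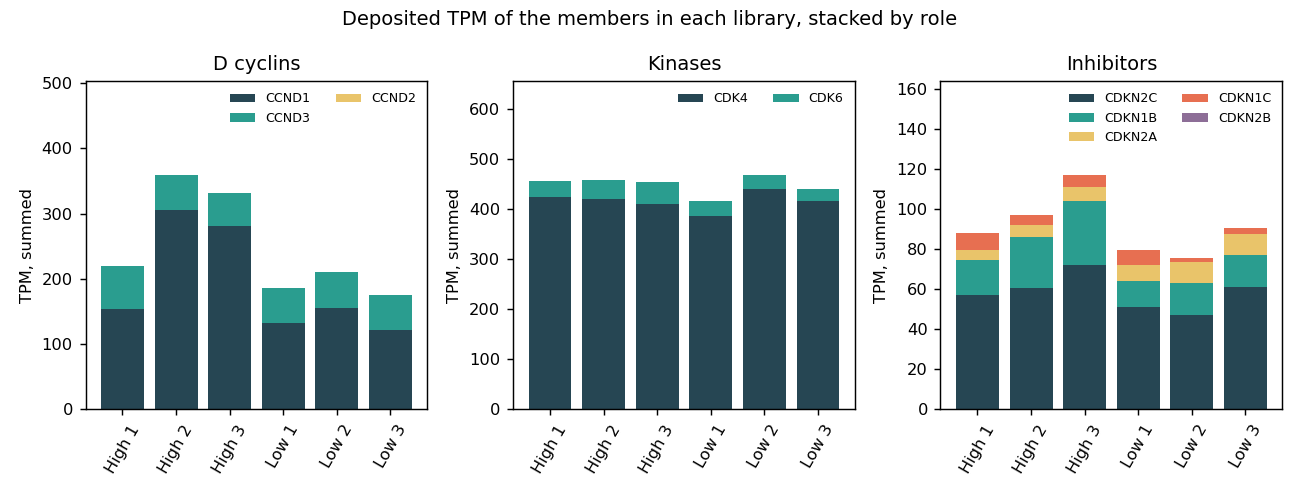
Deposited TPM of each gene, stacked by role (D cyclins, kinases, inhibitors), with 1 bar per library. D cyclin sums are 220 TPM in ALDH_High library 1 and 359 and 332 TPM in libraries 2 and 3, against 175 to 211 TPM in ALDH_Low, and the bars of the kinases are mostly CDK4.

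**Figure D3:**
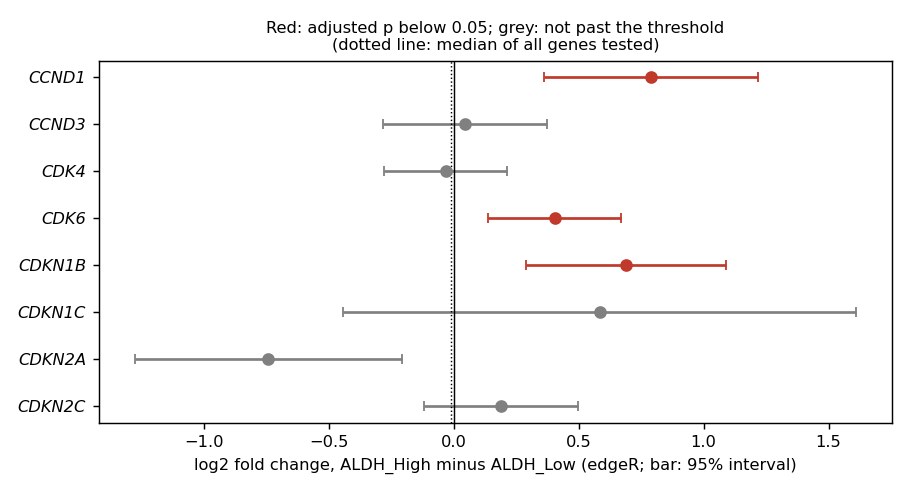
Log2 fold change of the 8 genes tested (x axis, ALDH_High minus ALDH_Low) with 95% intervals from the edgeR fit. CCND1 (0.79), CDK6 (0.40) and CDKN1B (0.69) are drawn as past the threshold, and the interval of CDKN2A lies below 0 although its adjusted p of 0.0537 did not pass.

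The calls on CCND1, CDK6 and CDKN1B depended on the libraries used. All 3 passed without ALDH_High library 1, and 0 of the 3 passed without ALDH_High library 2. Over the whole table, ALDH_High library 1 also stood apart from its group. Chi-square per degree of freedom was 40.6 and 50.1 against ALDH_High libraries 2 and 3, and 12.1 between those. With 1 library left out at a time, CCND1 passed in 3 of 6 fits, CDK6 in 2 and CDKN1B in 2. Their sign was positive under all 15 alternatives, with log2 fold changes of 0.64 to 1.02 for CCND1, 0.34 to 0.50 for CDK6 and 0.53 to 0.86 for CDKN1B. In the authors' deposited table, log2 coefficients against a group named 1A3, which was not analysed here, were 0.30 for the high and -0.51 for the low group in CCND1, 0.67 and 0.25 in CDK6, 0.80 and 0.090 in CDKN1B, and -0.35 and 0.38 in CDKN2A. The differences between the coefficients in the authors' deposited table were 0.81, 0.42, 0.71 and -0.73; they come from the same libraries and are no independent measurement.

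**Figure D4:**
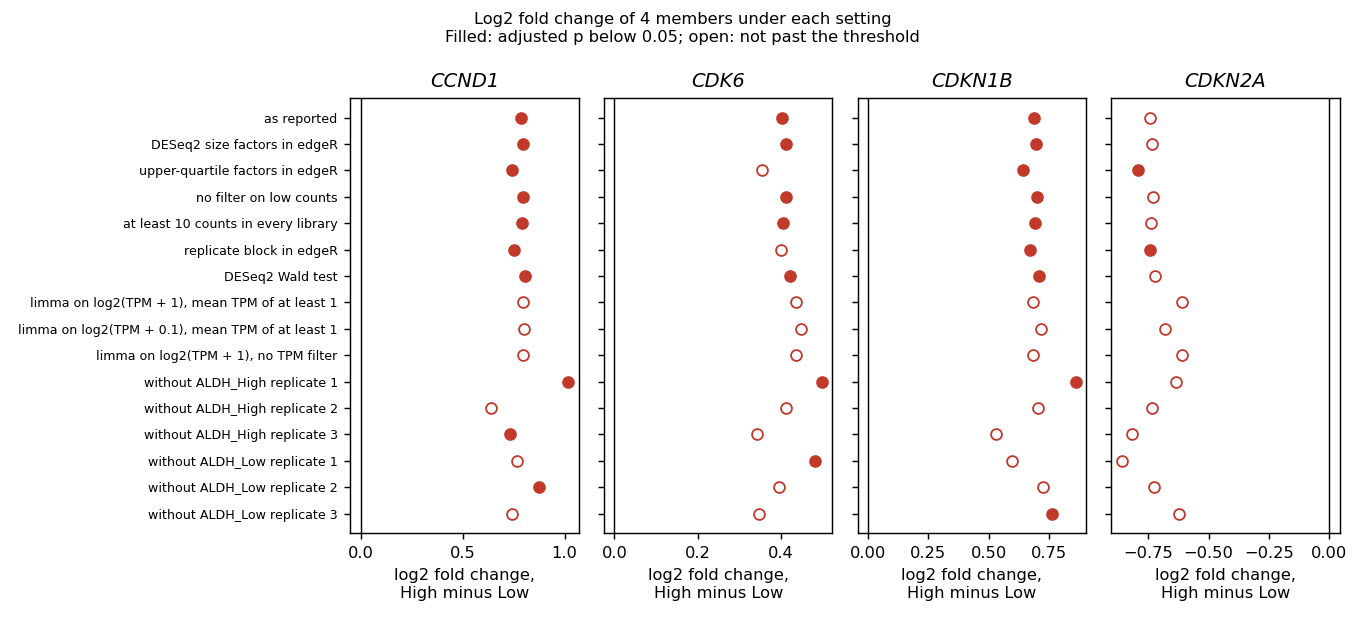
Log2 fold change (x axis) of CCND1, CDK6, CDKN1B and CDKN2A under the fit reported and 15 alternatives (y axis), filled where the adjusted p was below 0.05. CCND1, CDK6 and CDKN1B stay above 0 and CDKN2A below 0 throughout, while the 3 limma settings on TPM leave all 4 points open.

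The other inhibitors of these families, CDKN1A and CDKN2D, were named after their values had been seen. CDKN2D (p19, an INK4 gene on chromosome 19, 10566460 to 10569059) had 31.0, 22.8 and 25.8 CPM in ALDH_High and 18.9, 16.9 and 21.1 CPM in ALDH_Low. The groups did not overlap, and the log2 fold change of CDKN2D was 0.49 (SE 0.15, edgeR adjusted p 0.0486). With 1 library left out at a time it passed in 1 of 6 fits, the one without ALDH_High library 2, with adjusted p values up to 0.170, and with upper-quartile scaling the adjusted p was 0.0730. CDKN1A (p21, the CIP/KIP inhibitor that p53 induces) had 254, 124 and 107 CPM in ALDH_High and 122, 83.0 and 90.4 CPM in ALDH_Low. ALDH_High library 1 was far above the others and the rest overlapped. CDKN1A had a log2 fold change of 0.71 (SE 0.29, edgeR adjusted p 0.119). The edgeR adjusted p was 0.0201 under the replicate block, 0.0423 without ALDH_High library 3, 2.15e-06 without the filter on low counts and 0.316 without ALDH_High library 1. In the fit without that filter the SE was 0.13 for each of CCND1, CDK4 and CDK6, where the main fit gave 0.19, 0.11 and 0.12. The unfiltered fit gave an SE of 0.16 for CDKN1B and 0.30 for CDKN2A, where the main fit gave 0.18 and 0.24. The SE there was thus nearly equal for CCND1, CDK4 and CDK6, but not for all genes. The p-values of the unfiltered fit are therefore not taken here to measure the spread of a single gene between libraries.

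The wider G1/S machinery was described with a list of 22 genes (E cyclins, CDK2, the remaining inhibitors, RB1 and its relatives, E2F and DP factors, CDC25A and the CDK-activating kinase). All 22 were tested: 3 were higher, 1 was lower and 18 did not pass, with a median log2 fold change of 0.021. Of all genes tested, 10.8% were higher and 9.83% lower, and the counts of this and the following lists are to be read beside these shares. E2F8, an atypical E2F that represses E2F targets, had 16.8 ± 2.14 CPM in ALDH_High and 9.75 ± 1.12 in ALDH_Low (SD, n = 3; log2 fold change 0.79, edgeR adjusted p 0.00701). RBL1, the RB1 relative p107, had 35.4 ± 4.78 and 24.7 ± 3.77 CPM (0.52, 0.0390). E2F2, an activating E2F, was the lower one, with 14.8, 17.4 and 17.3 CPM in ALDH_High and 24.1, 24.7 and 21.7 CPM in ALDH_Low (-0.51, 0.0216). RBL1 passed in 1 of 6 fits with a library left out and E2F2 in 2, while E2F8 passed in all 6. RBL1 did not pass with upper-quartile scaling (edgeR adjusted p 0.0558), under which the list held 1 higher gene, and neither RBL1 (0.117) nor E2F2 (0.143) passed in limma on log2(TPM + 1). The count of higher genes was 1 without ALDH_Low library 1, 2 or 3, and the count of lower genes was 0 without ALDH_High library 2 or 3 or ALDH_Low library 1 or 2.

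Of 16 genes for the turnover of D cyclins and CIP/KIP proteins (SKP2 and FBXW7 ligase parts, AMBRA1, GSK3B and others), 16 were tested, 2 were higher and 0 lower, with a median log2 fold change of 0.084. The shares over all genes tested were 10.8% higher and 9.83% lower. FZR1, an activator of the anaphase-promoting complex in G1, had 111 ± 9.31 CPM in ALDH_High and 60.7 ± 3.42 in ALDH_Low (log2 fold change 0.87, edgeR adjusted p 0.000437; SD, n = 3), and it passed whichever of the 6 libraries was left out. CRYAB, a small heat shock protein, had 0.828, 0.376 and 0.352 CPM in ALDH_High and 0.134 to 0.156 in ALDH_Low (1.78, edgeR adjusted p 0.0343). These values rest on 21, 13 and 12 counts in ALDH_High and 6, 4 and 4 in ALDH_Low. CRYAB passed in 1 of those 6 fits and did not pass in DESeq2 (adjusted p 0.109). A filter of at least 10 counts in every library left CRYAB out, and the list then held 1 higher gene. At an unadjusted p below 0.05, 0 of these genes were lower in edgeR, DESeq2 and limma, and 3, 4 and 4 were higher. The count of higher genes was 1 without ALDH_High library 2 or without ALDH_Low library 1, 2 or 3.

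Of 25 factors known to act on the transcription of these genes, 25 were tested, 2 were higher and 5 lower, with a median log2 fold change of -0.096. TBX2, a T-box repressor, had 54.9 ± 19.5 CPM in ALDH_High and 9.82 ± 0.374 in ALDH_Low (log2 fold change 2.48, edgeR adjusted p 5.28e-05), with 77.3, 41.9 and 45.4 CPM in the ALDH_High libraries. SOX10 was at 669.9 ± 122 against 194 ± 18.3 CPM (1.79). MYC, which is known to induce CCND2 and CDK4 and to repress CDKN2B, had 37.1 ± 2.14 CPM in ALDH_High and 67.6 ± 14.5 in ALDH_Low (-0.86, edgeR adjusted p 0.00374). SMAD2, which carries TGF-beta signals, had 59.9 ± 5.06 and 87.7 ± 5.44 CPM (-0.55, 0.00662; all SD, n = 3). These 4 genes passed whichever of the 6 libraries was left out. The part of any of these factors in the levels of the genes described here was not tested. The count of lower genes was 3 without ALDH_High library 2 or 3 or without ALDH_Low library 1.

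Later phases of the cycle were measured in the same fit, where 10.8% of all genes tested were higher and 9.83% lower. Of 26 S phase genes that E2F factors drive, 4 were higher and 1 lower, with a median log2 fold change of 0.018: GINS1 of the replicative helicase (0.72, edgeR adjusted p 0.00162) and TYMS, which makes thymidylate (0.50, 0.0160), were the 2 higher genes with the smallest p, and UNG, a uracil glycosylase, was the lower one (-0.36, 0.0267). UNG did not pass under the replicate block (-0.36, edgeR adjusted p 0.0521), without the filter on low counts (-0.35, 0.0653) or in limma on log2(TPM + 1) (-0.31, 0.0516), and upper-quartile scaling gave 3 lower S phase genes. The limit given above for the p-values of the edgeR fit without that filter holds for UNG too. The count of higher genes was 2 without ALDH_High library 2 or without ALDH_Low library 1 or 2, and the count of lower genes was 2 without ALDH_High library 1 and 0 without any 1 of the other 5 libraries. Of 25 G2 and M phase genes, 15 were higher and 0 lower, with a median of 0.55; CDK1 (1.66) and UBE2C (1.76) had the smallest p. At an unadjusted p below 0.05, edgeR counted 18 of the G2 and M phase genes as higher and 0 as lower, DESeq2 18 and 0, and limma 16 and 0. Summed over the G2 and M phase list, TPM was 3756 to 4386 in ALDH_High and 2424 to 2797 in ALDH_Low, and that of the S phase list 3383 to 3596 and 3106 to 3248. The part of cell cycle composition in the levels of CCND1, CDK6, CDKN1B and CDKN2A was not tested.

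**Figure D5:**
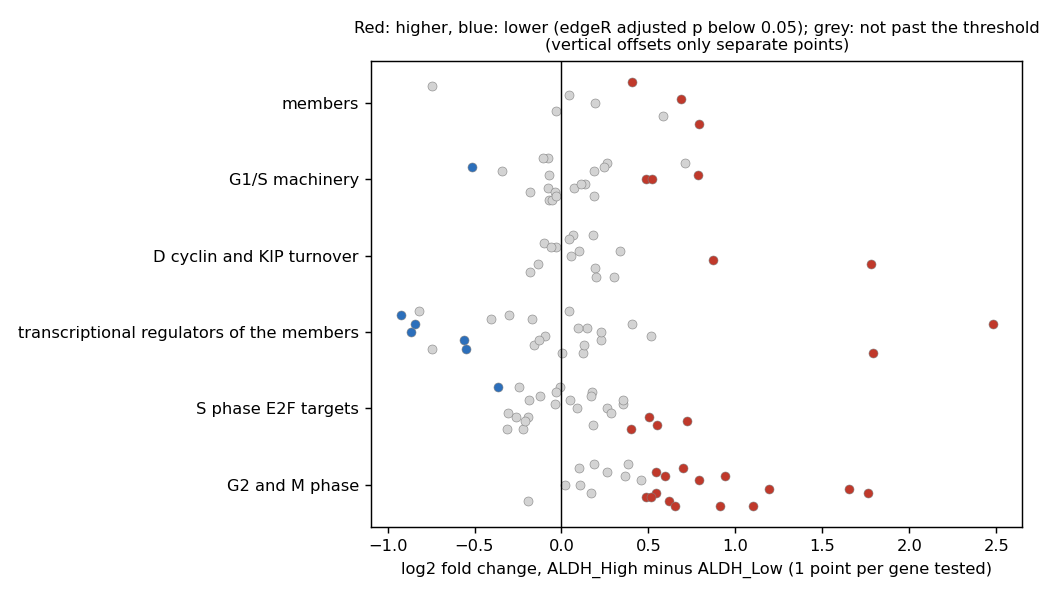
Log2 fold change (x axis, ALDH_High minus ALDH_Low) of each tested gene of the 10 described here and of the pathway lists, coloured by the edgeR call. Points of the G1/S machinery list lie on both sides of 0 (3 higher, 1 lower), and 15 of 25 in the G2 and M phase list are higher.

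The rule for likeness of pattern took the called gene with the smallest p, CCND1, and compared it with 9534 genes at a mean of at least 10 CPM. NOTCH3, a Notch receptor, had the highest Pearson r with CCND1 in log2 CPM over the 6 libraries (0.996), then CALD1, an actin-binding protein (0.994), and CHUK, the kinase IKK-alpha (0.992). The r values are a description over 6 libraries that share the contrast and the scaling. NOTCH3, CALD1 and CHUK were picked by r, so their likeness to CCND1 across libraries, also in direction, follows from the choice. NOTCH3 had 14.9, 22.1 and 20.0 CPM in ALDH_High and 12.5, 14.5 and 12.1 in ALDH_Low, with the same low ALDH_High library 1 as CCND1. Its log2 fold change was 0.54 (edgeR adjusted p 0.0499), and those of CALD1 (0.32, 0.116) and CHUK (0.32, 0.112) did not pass. With 1 library left out at a time, NOTCH3 passed in 1 of 6 fits, the one without ALDH_High library 1 (0.71, adjusted p 0.00679).

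Some rows could share reads with neighbours, because the annotation places other genes over these ones and no source used here says whether strand was used in counting. CCND1 overlaps LTO1 on the opposite strand, which had at most 747 counts in a library, where CCND1 had 9433 or more. CDK4 overlaps TSPAN31 on the opposite strand (15.7 to 26.4 CPM, log2 fold change -0.35, edgeR adjusted p 0.200) and MARCHF9 (at most 658 counts). CDK6-AS1, matched by identifier, had at most 74 counts beside CDK6. CDKN1B overlaps GPR19 on the opposite strand, which had at most 154 counts in a library, where CDKN1B had 694 to 1520. BYSL, next to CCND3, had a log2 fold change of 0.12 (edgeR adjusted p 0.519). CDKN2B-AS1, which overlaps CDKN2A and CDKN2B on the opposite strand, was too low to be tested, with 7, 9 and 15 counts in ALDH_High and 7, 3 and 3 in ALDH_Low. CDKN2A-DT had 1 count in 1 library and CCND2-AS1 had 0 in all 6.

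Total counts per library lay between 26692868 and 37830603. Of 8 melanoma and melanocyte markers, SOX10 (669.9 and 194 CPM, means of ALDH_High and ALDH_Low), MITF (13.0 and 24.7) and S100B (32.2 and 1.68) were above 1 CPM in both groups, and the pigment genes MLANA, PMEL, TYR, TYRP1 and DCT were at means of at most 0.501 CPM. Among 8 white blood cell markers, PTPRC had means of 0.0713 and 0.0764 CPM and MS4A1 had 0 counts; the list summed to 3.55 to 8.06 TPM in ALDH_High and 1.96 to 2.90 in ALDH_Low, with LYZ higher (3.89 and 1.23 CPM) and CD14 lower (0.224 and 0.913 CPM). The 6 fibroblast markers summed to 10.3 to 13.6 and 9.09 to 11.2 TPM, with PDGFRB lower (6.77 and 11.8 CPM). The part of these markers in the results was not tested.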

How the data were processed

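RNA of 6 libraries, grouped by the sample titles, was measured with stranded mRNA libraries, per the labels' protocols. The authors deposited a table of estimated counts and a table of TPM values. They also gave log2 coefficients of a model that held other groups too (columns named as DESeq2 names them, per the file headers). Counts were rounded to whole numbers before use here. After rounding, between 133 and 177 genes per library had a count of 0 beside a TPM above 0. That tally does not show whether the deposited values were already whole numbers. Per the submitters' processing notes, the build was GRCh38 and FastQC 0.11.3, STAR 2.5.1b, HTSeq 0.6.1 and DESeq2 were used; which tool made the counts, and the annotation, are not given in the sources used here. Gene positions come from GENCODE 44 on GRCh38, matched by identifier.

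Genes were kept with filterByExpr, scaled with TMM and tested with edgeR 4.0.16 (quasi-likelihood F-test, two-sided) without covariates. SE was obtained as log2 fold change over the root of F. A gene with at most 3 counts in a library was treated as at the floor. Single shares were compared with exact permutation tests. Alternatives were other scalings and filters, a replicate block, leaving out libraries singly, DESeq2 1.42.0, and limma 3.58.1 on log2(TPM + 1) and log2(TPM + 0.1). Scripts were tested on simulated data.

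The genes and lists were chosen with earlier results of these data known. Named are the 10 genes; the 2 genes of each list with the smallest p in each direction among those called; the overlapping or neighbouring genes listed; and the 3 genes most like the called gene with the smallest p in each direction. No gene was called lower, so only CCND1 was used. Deviations from the group mean correlated between same-numbered libraries 1, 2 and 3 at 0.19, 0.13 and 0.11 on log2(CPM + 0.5), 0.15, 0.076 and 0.11 on edgeR's log2 CPM with a prior count of 2, and 0.22, 0.25 and 0.035 for genes with at least 10 CPM. Libraries of different numbers correlated at -0.29 to 0.038 over these measures, so the same-numbered values were higher, except for 0.035. The size of the same-numbered values depends on the scale, and whether equal numbers mark pairs was not settled. Equal numbers were not treated as pairs, and the value under the block is given where it changes the call of a gene named.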

Additional observations from a re-analysis of the deposited data

How the results depend on the processing

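The numbers of called genes among the 10 were 3 higher and 0 lower. The count of higher genes was 0 in all 3 limma settings (pseudocount 1 or 0.1 with a filter on mean TPM, and pseudocount 1 unfiltered); the cause was not tested. With libraries left out singly it ran from 0 to 3, and that of lower genes was 0 in all 6; fewer samples are part of that construction. The count of lower genes was 1 (CDKN2A) with upper-quartile scaling and 1 with the replicate block, where the count of higher genes was 2. Same-numbered libraries were not taken as pairs. The log2 fold change of CCND3 changed sign to -0.0061 with upper-quartile scaling and -0.13 without ALDH_High library 1, and reached 0.17 without ALDH_High library 3. That of CDK4 changed sign to 0.016 in each of the 3 limma settings, 0.00038 without ALDH_High library 2 and 0.029 without ALDH_High library 3, and was -0.084 without ALDH_High library 1. The share of CDKN1C in the inhibitor TPM, 1.45 percentage points higher in ALDH_High, ran from -0.17 (ALDH_High library 1 left out) to 3.68 (ALDH_Low library 1 left out). Of 120 alternative values for the log2 fold changes of the 8 genes tested, 88 kept their sign and their side of the threshold, 22 lost the call, 3 gained it and 7 changed sign. These alternatives include the edgeR fit without the filter on low counts, whose p-values carry the limit given with CDKN1A. Upper-quartile scaling moved the median of all genes tested from -0.013 to -0.062. In limma this median was 0.035 and 0.038 with the filter on mean TPM (pseudocounts 1 and 0.1) and -0.00064 unfiltered. CDKN2A rests on 56 to 138 counts per library and CDKN1C on 48 to 243, the lowest of the 8 genes tested. The part of depth in the error of CDKN2A and CDKN1C was not tested. CCND2 and CDKN2B were not detectable at this depth beyond 1 count.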
